A study of Mus musculus with 19 samples.

Results

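The genes described here are 10 interferon-inducible GTPases of the mouse, measured as mRNA in spleen cells. They are the guanylate-binding proteins (GBPs) Gbp2 (Entrez gene 14469), Gbp3 (55932), Gbp4 (17472), Gbp5 (229898), Gbp7 (229900) and Gbp9 (236573), and the immunity-related GTPases (IRGs) Irgm1 (15944), Irgm2 (54396), Igtp (16145) and Iigp1 (60440). They were picked by symbol as members of these families, with earlier results of these data known. They are 10 of the 27179 genes in the deposited table, and also 10 of the 14186 genes that passed the filter on expression.

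GBPs are large GTPases of the dynamin superfamily, and IRGs are smaller GTPases. Interferon gamma, and to a lesser degree type I interferon, switches on both families through transcription factors such as IRF1, which bind short DNA elements in their promoters. The proteins gather on vacuoles that hold bacteria or parasites, damage those vacuoles, and help activate inflammasomes. Among the IRGs, Irgm1, Irgm2 and Igtp sit on host membranes and hold effectors such as Iigp1 in an inactive state.

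The mice came from the FCG model, named for its 4 core genotypes and bred from B6.Cg-Tg(Sry)2Ei Srydl1Rlb/ArnoJ males and C57BL/6J females. In this model the testis gene Sry is missing from the Y chromosome and sits on chromosome 3 as a transgene, so that gonads and sex chromosomes are inherited apart. The groups were XX mice with ovaries (XXF, 5 mice), XY mice with ovaries (XYF, 4 mice), XX mice with testes (XXM, 5 mice) and XY mice with testes (XYM, 5 mice). All 19 mice were injected with heat-killed Streptococcus pneumoniae and their spleens were taken 7 days later. No group went without the injection, so the level of each GTPase before it is not known, and ages are not stated. RNA came from whole splenocyte suspensions after lysis of red cells, so fewer cells of a type and less RNA per cell cannot be told apart.

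Library sizes, estimated from the steps between the values, ran from 11263753 reads (XYF F6) to 19962022 reads (XYM 13), with a median of 17391536. They are not exact to the read, since the reads recovered per gene summed to slightly more, 11265777 in XYF F6 and 19968596 in XYM 13. Reads of Xist and Sry were set beside the labels of each mouse. Xist had 6248 to 12515 reads in XXF, 5 to 11 in XYF, 5823 to 12998 in XXM and 2 to 17 in XYM. Sry had 0 reads in every XXF and XYF mouse, 12 to 59 in XXM and 29 to 119 in XYM. No batch is given, and the running numbers of the samples keep each group together, so the order of processing and the group cannot be told apart. Of the sample titles, those of XXM carry an extra tag whose meaning is not given. A pair of mice stood apart from their groups by genes other than the GTPases. XYM 9 and XYF F9 had the highest summed RPKM of 8 neutrophil marker genes, 58300 and 56200, beside 3210 to 16600 in the other XYM and XYF mice. Results are given with all mice and, where it matters, without these mice. Values for single mice are listed throughout in the order XXF F1 to F5, XYF F6 to F9, XXM 2, 5, 6, 7 and 8, and XYM 9, 12, 13, 15 and 16. Levels are log2(RPKM + 1), where RPKM is the number of reads scaled for the length of the gene and the size of the library. A fold is a ratio of RPKM + 1, taken from the difference of mean levels. It understates the ratio of RPKM for genes of low level, of the members most for Iigp1.

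The GTPase genes lie in a few small clusters of the genome (GRCm38.p6, RefSeq), as is usual for families that grew by duplication. On chromosome 3, Gbp5 (142496934 to 142522344), Gbp7 (142530336 to 142550151), Gbp3 (142560016 to 142573213) and Gbp2 (142620663 to 142638008) fill a span of 141 kb. On chromosome 5, Gbp9 (105076464 to 105110357) and Gbp4 (105115767 to 105139586) fill 63.1 kb. On chromosome 11, Igtp (58199556 to 58207592) and Irgm2 (58214977 to 58222783) are neighbours, and Irgm1 (48865245 to 48871420) lies far from them. Iigp1 is on chromosome 18 (60373616 to 60392634). The Sry transgene of the male mice is on the same chromosome as 4 of the GBPs, and its distance from them is not given. Both male groups carry it and both female groups lack it, so sequence linked to the transgene and the presence of testes cannot be told apart for Gbp2, Gbp3, Gbp5 and Gbp7.

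All 10 GTPases were read in every mouse, and among these members the IRG regulators were on average more abundant than the effector Iigp1. Irgm1 had the highest level, with a mean RPKM of 56.9 (39.6 to 76.8), followed by Igtp at 42.2 ± 14.6 (SD, n = 19). Iigp1 was last, at 8.11 ± 5.05, so among these members an effector with few transcripts stood beside regulators with more. Between Igtp and Iigp1 came Gbp3 (29.5 ± 4.19), Gbp2 (23.9 ± 7.49), Irgm2 (21.5 ± 5.06), Gbp9 (20.9 ± 9.09), Gbp7 (16.8 ± 3.79), Gbp5 (16.6 ± 3.54) and Gbp4 (16.6 ± 4.4). Outside the members, Ifi47 of the same families had a mean RPKM of 82.4, so no order of regulators and effectors at large is given. Among the genes that passed the filter, the mean level of Irgm1 was at percentile 88.7 and that of Iigp1 at percentile 44.7. The order varied between mice. Irgm1 was above Igtp in 17 of 19 mice, Gbp4 was above Iigp1 in 18 of 19, and Gbp7 was above Gbp5 in 7 of 19. Iigp1 was last by group mean in XXF, XXM and XYM, and Gbp5 was last in XYF. Iigp1 also varied most, over 2.75 log2 units, from an RPKM of 2.26 in XYM 9 to 20.9 in XYF F8, and Gbp3 least, over 0.78. The lowest read count of any member in any mouse was 93, for Iigp1 in an XXM mouse, so each level rests on many reads. Gbp4 and Gbp9 have near copies in the genome, and how reads that match several copies were counted is not given.

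Promoters of the GTPases carried a DNA element through which interferons act. The start regions searched ran from 250 bases before to 50 bases after the start of transcription, for 7 members with 8 promoters. The table of promoters holds no entry for Gbp4, Gbp9 and Iigp1. The core of the interferon-stimulated response element, GAAANNGAAA on either strand, occurred in 7 of the 8 promoters and in each of the 7 members. Of all 32851 promoters in the table, 1131 (3.44%) held it. The response element lay close to the start: 59 bases before it in Gbp2, 45 and 39 in Gbp3, 34 in Igtp, 64 in Irgm2, 30 and 24 in Irgm1 and 53 in Gbp7. Gbp5 differed, with the element 165 bases before the start. The promoters of the neighbours Igtp and Irgm2 had a longest shared run of 61 bases, outside their response elements. It began at base -11 from the start in Igtp and -41 in Irgm2. The run reached the end of the region searched in Igtp, so its full length is not known. Promoters of Gbp2 and Gbp3 follow as examples, in lower case with the matches in capitals, both on the plus strand. Gbp2 is at chr3:142620413-142620712 and Gbp3 (its first start) at chr3:142559794-142560093. A match is a description of the sequence, and binding was not measured.
Gbp2: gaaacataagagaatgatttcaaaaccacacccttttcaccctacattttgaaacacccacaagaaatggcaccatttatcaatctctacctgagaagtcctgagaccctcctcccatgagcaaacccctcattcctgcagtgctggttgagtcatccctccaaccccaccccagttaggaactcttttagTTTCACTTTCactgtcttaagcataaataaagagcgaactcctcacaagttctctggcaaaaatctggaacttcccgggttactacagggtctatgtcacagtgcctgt
Gbp3: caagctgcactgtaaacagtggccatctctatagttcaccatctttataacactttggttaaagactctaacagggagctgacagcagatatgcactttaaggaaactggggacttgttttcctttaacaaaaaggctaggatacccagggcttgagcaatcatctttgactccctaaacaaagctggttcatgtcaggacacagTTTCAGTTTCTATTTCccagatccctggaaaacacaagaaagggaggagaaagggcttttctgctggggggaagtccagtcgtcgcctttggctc

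Of the IRG regulators, Igtp and Irgm2 differed between groups of mice, and Irgm1 was called in no comparison. The levels of Igtp were 5.66, 5.84, 5.56, 5.41 and 5.84 in XXF, 5.99, 5.93, 6.18 and 5.51 in XYF, 4.70, 4.83, 4.79, 4.74 and 4.86 in XXM, and 4.61, 5.23, 5.22, 5.65 and 5.18 in XYM. Every XXM mouse was below every XXF and XYF mouse, and of the XYM mice only XYM 15 reached the range of XYF. The levels of Irgm2 were 4.92, 4.69, 4.41, 4.56 and 4.84 in XXF, 4.68, 4.62, 4.83 and 4.61 in XYF, 3.61, 3.99, 4.05, 4.19 and 4.15 in XXM, and 4.02, 4.52, 4.53, 4.74 and 4.67 in XYM. Irgm2 was lowest in the XXM mice, none of which reached either female group, and XYM overlapped every other group. Irgm1 ran from 5.34 to 6.28 over all mice, and its group means lay between 5.59 in XXM and 6.03 in XYF.

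The effector Iigp1 spread the groups furthest apart. Its levels were 3.40, 3.60, 3.14, 3.18 and 3.50 in XXF, 4.01, 3.99, 4.45 and 3.36 in XYF, 1.79, 1.90, 2.25, 1.80 and 1.77 in XXM, and 1.71, 2.85, 3.09, 3.29 and 3.25 in XYM. All XXM mice were below all XXF mice, and all XYM mice were below all XYF mice. XYM 9 was below even the XXM mice, while the other XYM mice were above them. As mean RPKM, Iigp1 stood at 9.36 ± 1.41 (SD, n = 5) in XXF, 2.76 ± 0.561 (n = 5) in XXM and 6.64 ± 2.65 (n = 5) in XYM, and it ran from 9.3 to 20.9 in the 4 XYF mice. These means rest on 357 to 568 reads per mouse in XXF, 532 to 1176 in XYF, 93 to 189 in XXM and 135 to 532 in XYM.

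The GBPs did not move as a block. Gbp2, which is drawn to vacuoles of Toxoplasma, had levels of 5.19, 5.15, 4.76, 4.92 and 4.996 in XXF, 4.74, 4.99, 5.15 and 4.78 in XYF, 3.93, 3.99, 4.27, 4.32 and 4.04 in XXM, and 3.61, 4.27, 4.39, 4.71 and 4.63 in XYM. Every male mouse, XXM or XYM, was below every female mouse for Gbp2. Gbp9 was spread within groups as much as between them. Its levels were 4.81, 4.01, 3.66, 4.58 and 4.34 in XXF, 3.78, 4.16, 4.43 and 3.68 in XYF, 3.53, 4.19, 4.36, 4.53 and 4.32 in XXM, and 4.004, 5.51, 5.01, 4.53 and 5.32 in XYM. The highest levels of Gbp9 were in XYM, where 3 of the 5 mice exceeded every mouse of the other groups. Gbp7, which has been tied to assembly of the NADPH oxidase, ran from 3.42 to 3.97 in XXM, below all XXF (4.07 to 4.39) and all XYF (4.17 to 4.65). Gbp3, Gbp4 and Gbp5 overlapped among most groups, and Gbp3 was the steadiest, with group means from 4.72 in XYF to 5.05 in XXM.

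**Figure D1:**
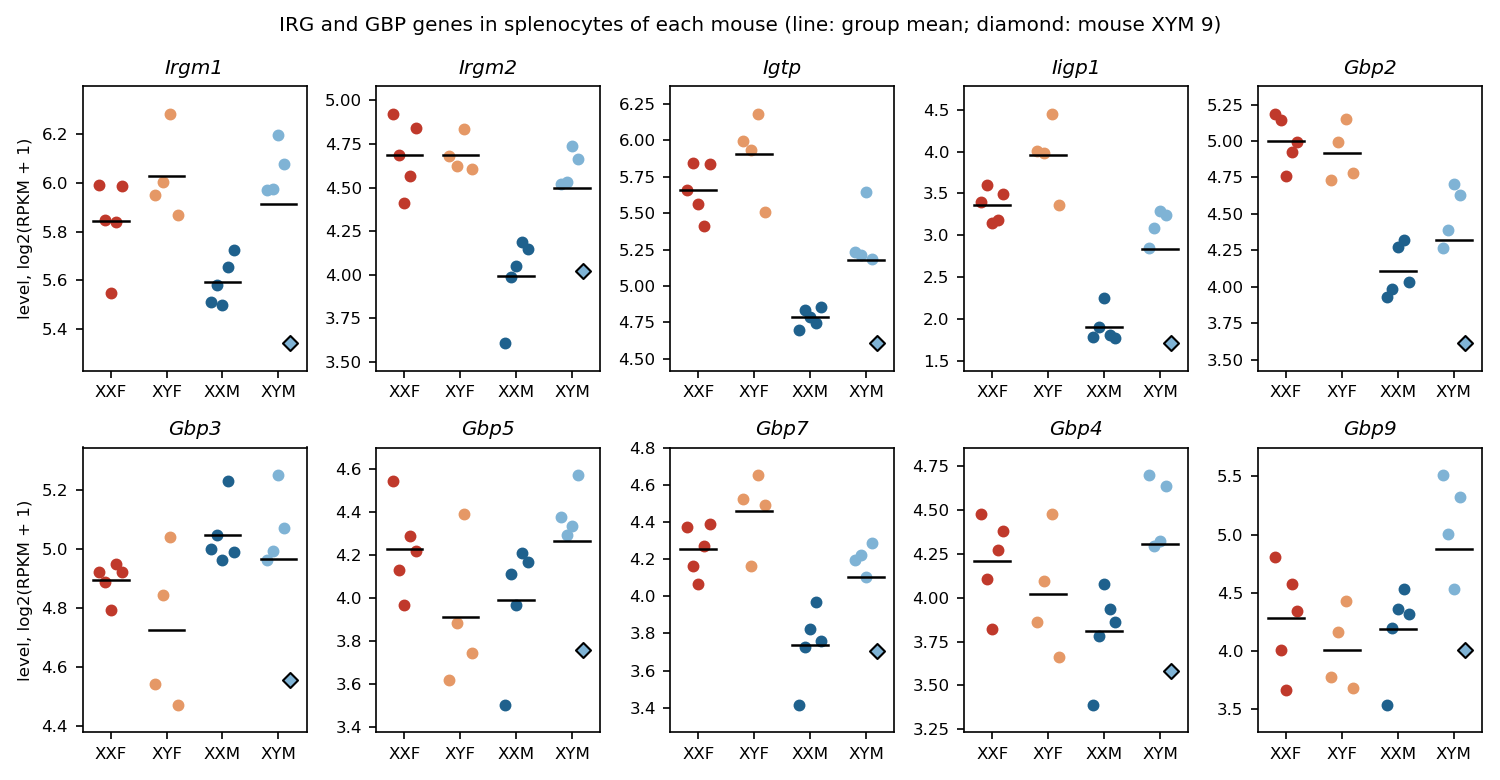
Levels of the 10 GTPases as log2(RPKM + 1) in each of the 19 mice, by group (XXF, XYF, XXM, XYM), with the group means. Iigp1 and Igtp sit lowest in XXM, Gbp2 is lower in every male than in every female mouse, and XYM 9 is the lowest XYM mouse for all 10 genes.

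**Figure D2:**
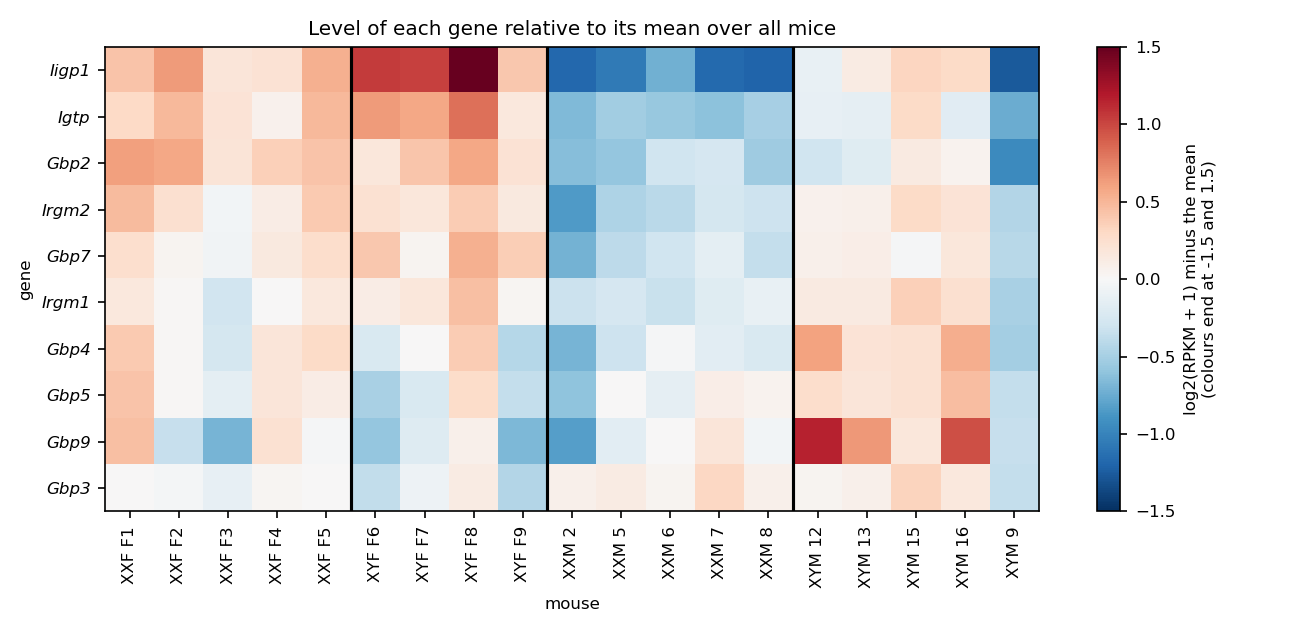
Level of each GTPase in each mouse, as log2 units above or below that gene's mean over the 19 mice. XXM 2 and XYM 9 are below the mean for most members, and Gbp3 keeps close to its mean across groups.

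Testes against ovaries in XX mice gave the clearest pattern of the comparisons. With testes, XX mice held less mRNA for the effector Iigp1 and for its regulators Igtp and Irgm2, so both sides of the IRG system were lower together. Gbp2 was lower too, while the other GBPs on its chromosome were lower by less or not at all. Irgm1, a regulator of the same class as Igtp and Irgm2, did not pass the test. In limma with Benjamini-Hochberg adjustment, XXM minus XXF, 4 of 10 members were called, all lower, where 4.22% of all genes were called and 2.91% were called lower. Iigp1 fell by 1.46 (SE 0.25, adjusted p = 0.00121), which is 2.75-fold in RPKM + 1. Its mean RPKM was 9.36 in XXF and 2.76 in XXM. Gbp2 fell by 0.89 (SE 0.16, adjusted p = 0.00251), Igtp fell by 0.88 (SE 0.15, adjusted p = 0.00153) and Irgm2 fell by 0.69 (SE 0.14, adjusted p = 0.00434). None of these 4 genes overlapped between the groups, and neither did Gbp7 and Gbp3, which makes 6 of 10 members where 9.71% of all genes did not overlap. Each of these calls was made in all 30 alternatives, with every adjusted p at or below 0.0161. The difference of Gbp7, -0.51 (adjusted p = 0.0174), was under the fold threshold. Gbp3 was the one member with a difference above 0 (0.15, adjusted p = 0.542), with every XXM mouse above every XXF mouse. The median over the members was -0.46, beside -0.01 for all genes tested, and 9 of the 10 were below 0. The remaining members, Irgm1, Gbp4, Gbp5 and Gbp9, had differences from -0.40 to -0.09. The sign for Gbp9 depends on single mice, from -0.25 to 0.07 when each mouse is left out.

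The same question in XY mice gave a mixed picture. Iigp1, Igtp and Gbp2 were again lower with testes, but Gbp9 was higher, so GBPs were called in opposite directions. Of the regulators, Igtp was lower with testes, and neither Irgm1 nor Irgm2 passed the test. In limma, XYM minus XYF, 3 members were called lower and 1 higher, where 15.8% of all genes were called, 8.13% of them lower and 7.63% higher as shares of all genes tested. Calls were far more common here than in XX mice for genes at large, so 4 of 10 members stands less far from the background. Iigp1 fell by 1.12 (SE 0.26, adjusted p = 0.00716), a 2.17-fold difference with no overlap between the groups. Igtp fell by 0.73 (SE 0.16, adjusted p = 0.00572) with 1 mouse of each group overlapping, and Gbp2 fell by 0.59 (SE 0.17, adjusted p = 0.0196) without overlap. Gbp9 rose by 0.86 (SE 0.29, adjusted p = 0.0344), with overlap. In all, 2 of 10 members did not overlap, where 13.8% of all genes did not, so that count is near the background.

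Several of these calls in XY mice lean on single animals. Without XYM 9, the call was lost for Gbp2 (-0.42, adjusted p = 0.0214) and for Igtp (-0.58, adjusted p = 0.00458), because their differences were then under the fold threshold, and 2 members were called, where 20.9% of all genes were called. Over all alternatives the adjusted p of Gbp2 ran from 0.00767 to 0.0832 and that of Igtp from 0.00193 to 0.0504. Gbp2 also lost its call without XYF F7 (-0.57), XYF F8 (-0.52) or XYM 12 (-0.58). Gbp9 lost its call without XYF F6 (0.79, adjusted p = 0.106, within 0.00599 to 0.106). Iigp1 was called in all 30 alternatives, and leaving out each mouse gave differences from -1.31 to -0.84. The median over the members was -0.15, beside 0.02 for all genes, so the members spread to both sides of 0. Irgm2 was called in XX mice and not in XY mice (-0.19, adjusted p = 0.324). Gbp9 was called in XY mice and not in XX mice. The test of the difference itself, the interaction given further on, called neither gene.

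Averaged over both sex chromosome sets, testes went with lower Iigp1, Igtp and Gbp2. This average shares its mice with both comparisons of testes and ovaries above, so it is not independent of them. In limma, males minus females, 3 of 10 members were called, all lower, where 7.32% of all genes were called and 5.36% were called lower. Iigp1 fell by 1.29 (SE 0.18, adjusted p = 0.000121), which is 2.45-fold. Igtp fell by 0.80 (SE 0.11, adjusted p = 0.000113), which is 1.75-fold, and Gbp2 fell by 0.74 (SE 0.12, adjusted p = 0.000373), which is 1.68-fold. All 3 calls were made in all 29 alternatives. Irgm2 (-0.44, adjusted p = 0.00421), Gbp7 (-0.43, adjusted p = 0.00266) and Gbp3 (0.20, adjusted p = 0.0955) had an adjusted p under the threshold and a difference too small to be called. Gbp3 thus leaned the other way from its neighbours Gbp2 and Gbp7. The members' median was -0.31, beside 0.02 for all genes. Gbp4 and Gbp5 had means that hardly differed between males and females (-0.06 and 0.06), and the sign for Gbp4 depends on single mice, from -0.12 to 0.03.

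The effector also differed by sex chromosomes in mice with testes. XX mice with testes held less Iigp1 mRNA than XY mice with testes, and 9 of the 10 GTPases leaned the same way. By adjusted p, the regulator Irgm2 came closest to Iigp1, and by size of difference Gbp9 did (-0.69, not called). In limma, XXM minus XYM, 1 of 10 members was called, lower, where 2.96% of all genes were called and 1.83% were called lower. Iigp1 fell by 0.93 (SE 0.25, adjusted p = 0.0699), which is 1.91-fold, and the groups overlapped because XYM 9 was the lowest of both. Irgm2 had an adjusted p of 0.0727 and a difference of -0.50, under the fold threshold. At an unadjusted p under 0.05 there were 7 of 10 members, beside 27.1% of all genes tested, and the members' median was -0.38, beside 0.01 for all genes.

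The count for males depended on XYM 9 and on other mice. Without XYM 9, calls became more common for genes at large, at 5.48% of all genes, and 4 of 10 members were called, all lower: Iigp1 (-1.22), Irgm2 (-0.62, adjusted p = 0.0177), Gbp4 (-0.68, adjusted p = 0.0507) and Gbp9 (-0.91, adjusted p = 0.0627). Over all alternatives, the adjusted p of these ran from 0.000212 to 0.175 for Iigp1, 0.00519 to 0.199 for Irgm2, 0.0175 to 0.324 for Gbp4 and 0.0127 to 0.326 for Gbp9. Iigp1 lost its call without any one of XXM 2, XXM 5, XXM 6, XYM 12, XYM 13 or XYM 16, each of which left 0 members called. In these fits its difference stayed between -1.02 and -0.83, with adjusted p in limma from 0.109 to 0.175. As each mouse was left out, 0.36% to 8.55% of all genes were called. Gbp9 was called beside Iigp1 without XYM 15 (-0.77, adjusted p = 0.0795). The lower Iigp1 of XXM mice is therefore a call near the threshold, while its direction held in every alternative. XX and XY mice differ in the number of X chromosomes and in the presence of a Y chromosome, which cannot be told apart.

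In mice with ovaries, no GTPase passed the test between XX and XY. Members leaned in both directions, with Iigp1 lower and Gbp5 higher in XX than in XY mice. In limma, XXF minus XYF, 0 of 10 members were called, where 1.38% of all genes were called. Of the members, 1 had an unadjusted p under 0.05, beside 18.7% of all genes, and limma-voom called 0. That gene was Iigp1, with a difference of -0.59 (SE 0.26, adjusted p = 0.245). It was called without XYM 9 (-0.59, adjusted p = 0.0799, within 0.0224 to 0.409 over all alternatives), where 2.94% of all genes were called. XYM 9 is in neither XXF nor XYF, so only the spread shared by all groups and the adjustment of p changed. The remaining members had differences from -0.24 for Igtp to 0.32 for Gbp5. The members' median of 0.04, beside 0.06 for all genes, became -0.03 under median ratio rescaling. Over all genes, the same rescaling moved the share of calls that were higher in XXF from 48.5% to 35.3%, so no direction for the family is given.

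Averaged over gonads, Iigp1 was lower in XX than in XY mice. This average uses the same mice as the comparisons within females and within males. In limma, XX minus XY, 1 of 10 members was called, lower, where 1.72% of all genes were called and 1.21% were called lower. Iigp1 fell by 0.76 (SE 0.18, adjusted p = 0.0299), which is 1.70-fold, and was called in all 29 alternatives. Of its regulators, none was called: Igtp had a difference of -0.32, Irgm1 and Irgm2 each of -0.25. Gbp7 had an adjusted p of 0.0922 and a difference of -0.28, under the fold threshold. The median over the members was -0.23, beside 0.03 for all genes, and 5 of 10 had an unadjusted p under 0.05, beside 22.8% of all genes.

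Whether the sex chromosomes acted differently with ovaries than with testes was asked by the interaction. It is the XX minus XY difference in females less that in males, which equals the XYM minus XYF difference less the XXM minus XXF difference. All 10 members were above 0, from 0.09 for Gbp3 to 0.96 for Gbp9. By simple addition from the other groups, XXM or XYF leaned lower, or equally XXF or XYM leaned higher. The interaction does not single out any of these groups. In limma, 0 of 10 members were called, where 0.0846% of all genes were called. An unadjusted p under 0.05 was found for 4 of 10, beside 21% of all genes, and limma-voom called 0. These were Gbp9 (0.96, SE 0.40, adjusted p = 0.189), Gbp4 (0.69, adjusted p = 0.193), Gbp5 (0.59, adjusted p = 0.192) and Irgm2 (0.50, adjusted p = 0.173). For Iigp1 it was 0.34 (adjusted p = 0.582), so its difference between XX and XY mice was not shown to depend on the gonads. Without XYM 9, the share of all genes called went from 0.0846% to 11.9%, and those same 4 genes were called, Gbp9 at 1.17 (adjusted p = 0.0629), Gbp4 at 0.87 (adjusted p = 0.0565), Gbp5 at 0.72 (adjusted p = 0.0688) and Irgm2 at 0.62 (adjusted p = 0.0548). Over all alternatives their adjusted p ran from 0.0485 to 0.342, 0.0565 to 0.346, 0.0688 to 0.364 and 0.0528 to 0.302. Without XXF F3, Gbp9 alone was called (1.11, adjusted p = 0.0991), and without XYF F8, Gbp5 alone (0.75, adjusted p = 0.0947). The median over the members was 0.32, beside 0.02 for all genes tested.

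**Figure D3:**
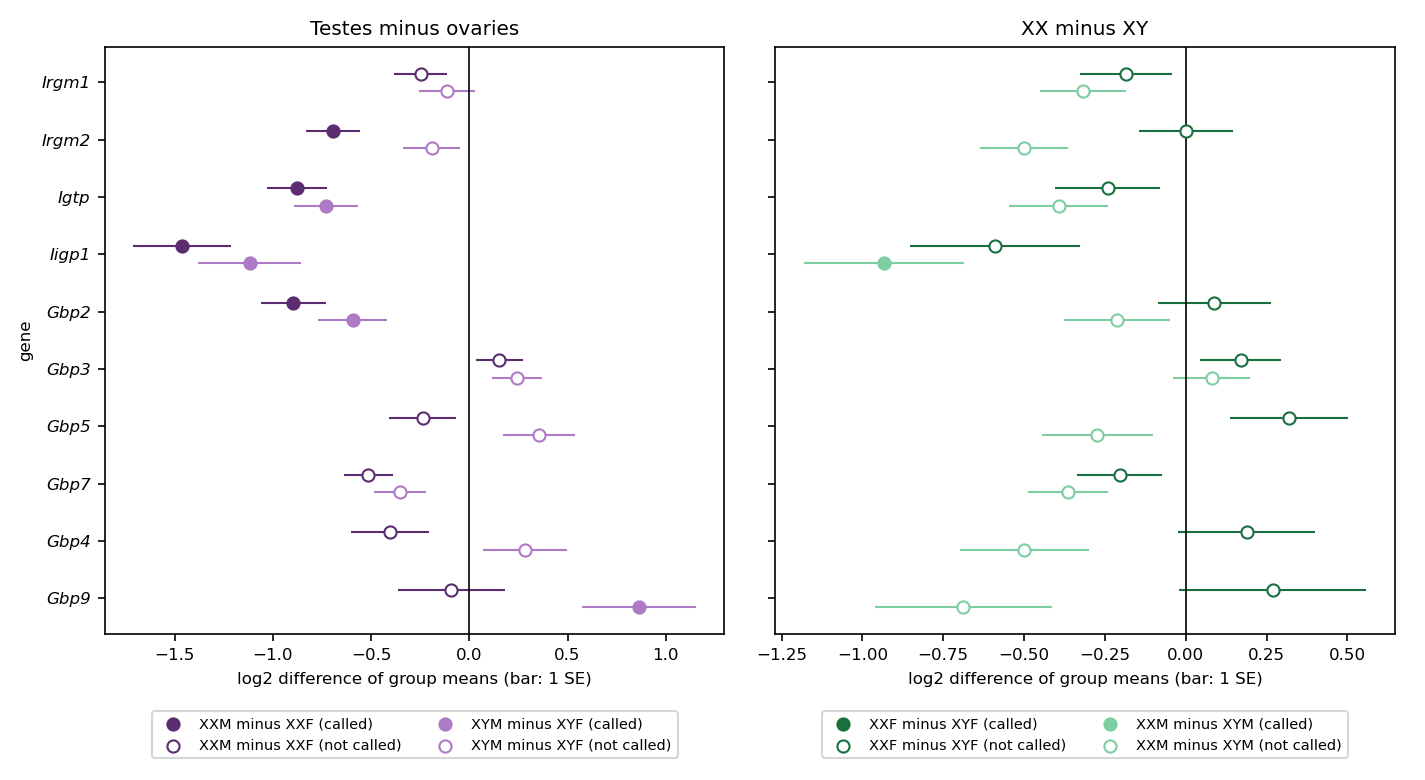
Difference of each GTPase on the log2 scale, with a bar of 1 SE, between testes and ovaries (left) and between XX and XY (right), with called genes filled. Iigp1 is below 0 in XXM minus XXF (-1.46), XYM minus XYF (-1.12) and XXM minus XYM (-0.93), and Gbp9 is above 0 in XYM minus XYF (0.86).

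The GTPases varied together from mouse to mouse, beyond the differences between groups. Over the 19 mice the 45 pairs of members had a median Pearson r of 0.569 (-0.213 to 0.964), and with group means removed 0.758 (0.347 to 0.929). The highest was Igtp with Iigp1 (0.964), a regulator and an effector on different chromosomes, and Gbp7 with Irgm2 had 0.917. The 10 pairs on 1 chromosome had a median of 0.686 over all mice and 0.758 within groups, beside 0.542 and 0.758 for the 35 pairs on different chromosomes. Within groups the highest pair was the neighbours Gbp4 and Gbp9 (0.929). Gbp3 was the exception across groups and not within them. Its 9 pairs had a median r of -0.016 over all mice and 0.739 within groups. Part of this rests on XYM 9, without which the median within groups was 0.591 over 18 mice (0.635 on 1 chromosome and 0.589 on different ones) and 44 of 45 pairs were above 0. The lowest was then Gbp9 with Igtp (-0.008). These values are descriptions, given without a test, because the points share their libraries and depths.

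A family score summed this up as the mean over the 10 members of each level less that gene's mean over all mice. Its mean was 0.17 in XXF (-0.10 to 0.35), 0.18 in XYF (-0.06 to 0.51), -0.36 in XXM (-0.64 to -0.22) and 0.05 in XYM. Each XXM mouse was thus below each female mouse, and below each XYM mouse other than XYM 9, which was at -0.59 while the other XYM mice ran from 0.12 to 0.29. Single animals were high or low for most members at once. XYM 9 was the lowest of XYM for 10 members, XYF F8 the highest of XYF for 10, and XXF F3 the lowest of XXF for 9. Outside both GTPase lists, genes with a high r with the score over 19 mice, of 14161 compared, included Nlrc5 (0.937), Cd4 (0.907), Irf9 (0.906) and Ifit1bl1 (0.905). Irf9 acts after type I interferon, and Nlrc5 switches on MHC class I genes. Within groups their r with the score was 0.903, 0.918, 0.872 and 0.918, and without XYM 9 it was 0.796, 0.806, 0.745 and 0.895.

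Other genes of both families moved with the members. Of 19 listed, 15 passed the filter, led by Ifi47 at a mean RPKM of 82.4, Gbp8 at 12.5 and Gm12250 at 12.1. Gbp2b, Gbp11, F830016B08Rik and 9930111J21Rik2 did not pass. In XXM minus XXF, where 2.91% of all genes were called lower, 8 of 15 were called lower, with a median of -0.64: Tgtp1 (-1.53), Tgtp2 (-1.36), Gbp6 (-1.02), Gm4951 (-0.89), Gbp8 (-0.83), Ifi47 (-0.74), Gm12250 (-0.73) and Gm12185 (-0.64). Lower IRG mRNA in XX mice with testes thus reached genes beyond Iigp1, Igtp and Irgm2. In XYM minus XYF, Gm4951 (-0.84), Tgtp1 (-0.77) and Gbp8 (-0.60) were called lower, and Irgq (0.72) and 9930111J21Rik1 (0.70) higher. Of all genes, 8.13% were called lower and 7.63% higher in that comparison. In XXM minus XYM, Tgtp2 (-0.87), Tgtp1 (-0.78) and Gbp6 (-0.65) were lower, and in XXF minus XYF, Gm4841 (-0.72). All-gene shares called lower in XXM minus XYM, and called at all in XXF minus XYF, were 1.83% and 1.38%. Males minus females called 5 lower, where 5.36% of all genes were called lower. Limma called 0 in XX minus XY (5 at an unadjusted p under 0.05, 1 by limma-voom) and in the interaction (6 and 0). Of all genes, 22.8% and 21% had an unadjusted p under 0.05 there. How reads shared by the near copies Tgtp1 and Tgtp2, or by Gbp4, Gbp8 and Gbp9, were counted is not given.

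Genes along the route from interferon to the GTPases were read from the same fits. Over all genes, 4.22% were called in XXM minus XXF (2.91% lower) and 15.8% in XYM minus XYF (8.13% lower, 7.63% higher). In XXM minus XYM 1.83% were called lower. An unadjusted p under 0.05 was found for 19.8% of all genes in XXM minus XXF and 42.4% in XYM minus XYF. Among 6 ligands and inducers that passed the filter (Ifnb1 did not), Il18 (23.6), Il12a (7.61) and Ifng (4.02) had the highest mean RPKM. Ifng itself differed little, by 0.08 in XXM minus XXF and -0.06 in XYM minus XYF, and was not called. Il12a was higher (0.93) and Il18 lower (-0.82) in XYM than in XYF, and Il21 was lower in XXM than in XYM (-1.01). In XXM minus XXF limma called 0 of the 6 (1 at an unadjusted p under 0.05, 1 by limma-voom). Of 7 receptors and kinases, led by Ifngr1 at 119, limma called 0 in XXM minus XXF (1 at an unadjusted p under 0.05) and 0 in XYM minus XYF (5), and limma-voom called 0 in both. In XYM minus XYF, 2 receptors or kinases were called higher with quantile normalization and 2 without XYM 9 and XYF F9. Over all genes, 2222 were called with quantile normalization and 3129 (22.1%) without both mice. Among 11 transcription factors, Irf8 (102) and Irf2 (83.2) were abundant. XXM minus XXF called 3 of them lower, among them Nlrc5 (-0.74) and Irf7 (-0.61), the same direction as Iigp1, Igtp, Irgm2 and Gbp2. XXM minus XYM called 2 lower, among them Nlrc5 (-0.75). XYM minus XYF called Irf7 lower (-0.75), and Ciita (1.06), the master regulator of MHC class II, and Irf8 (0.73) higher. Irf1, which drives many GBP promoters, was not called in XXM minus XXF (-0.34) or XYM minus XYF (-0.08). Of 7 inhibitors, led by Ptpn6 (292), limma called 0 in XXM minus XXF (3 at an unadjusted p under 0.05) and in XYM minus XYF (5), and limma-voom called 0.

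Genes that act beside the GTPases, or that answer the same signals, were read in the same way. Shares of all genes called lower were 2.91% in XXM minus XXF and 8.13% in XYM minus XYF, where 7.63% were called higher. In XXM minus XXF 19.8% of all genes had an unadjusted p under 0.05. Of 14 partners in membrane targeting and inflammasomes, led by Gabarap (113), only Pycard was called, lower in XYM than in XYF (-0.59). In XXM minus XXF limma called 0 of these 14 (3 at an unadjusted p under 0.05, 0 by limma-voom). Of 16 other interferon gamma targets (Ido1 and Nos2 did not pass the filter), led by Cd74 (5690), XXM minus XXF called Cxcl9 (-1.0025) and Serpina3g (-0.62) lower, with a median of -0.27. XYM minus XYF called Cxcl9 lower (-0.78) and Cd274 higher (0.60). Of 14 type I interferon targets, led by Rsad2 (135), XXM minus XXF called 6 lower: Isg15 (-0.98), Ifit1 (-0.87), Rtp4 (-0.81), Oasl2 (-0.80), Ifit2 (-0.76) and Oas1a (-0.62). XYM minus XYF also called 6 lower, with Isg15 (-2.33) and Rsad2 (-1.98) the furthest. Their medians were -0.52 and -0.50, beside -0.46 and -0.15 for the GTPases, and whether the lists differ was not tested. Without XYM 9 and XYF F9, an alternative chosen after seeing the data, XXM minus XYM called 5 other GTPases lower, where 6.18% of all genes were called.

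**Figure D4:**
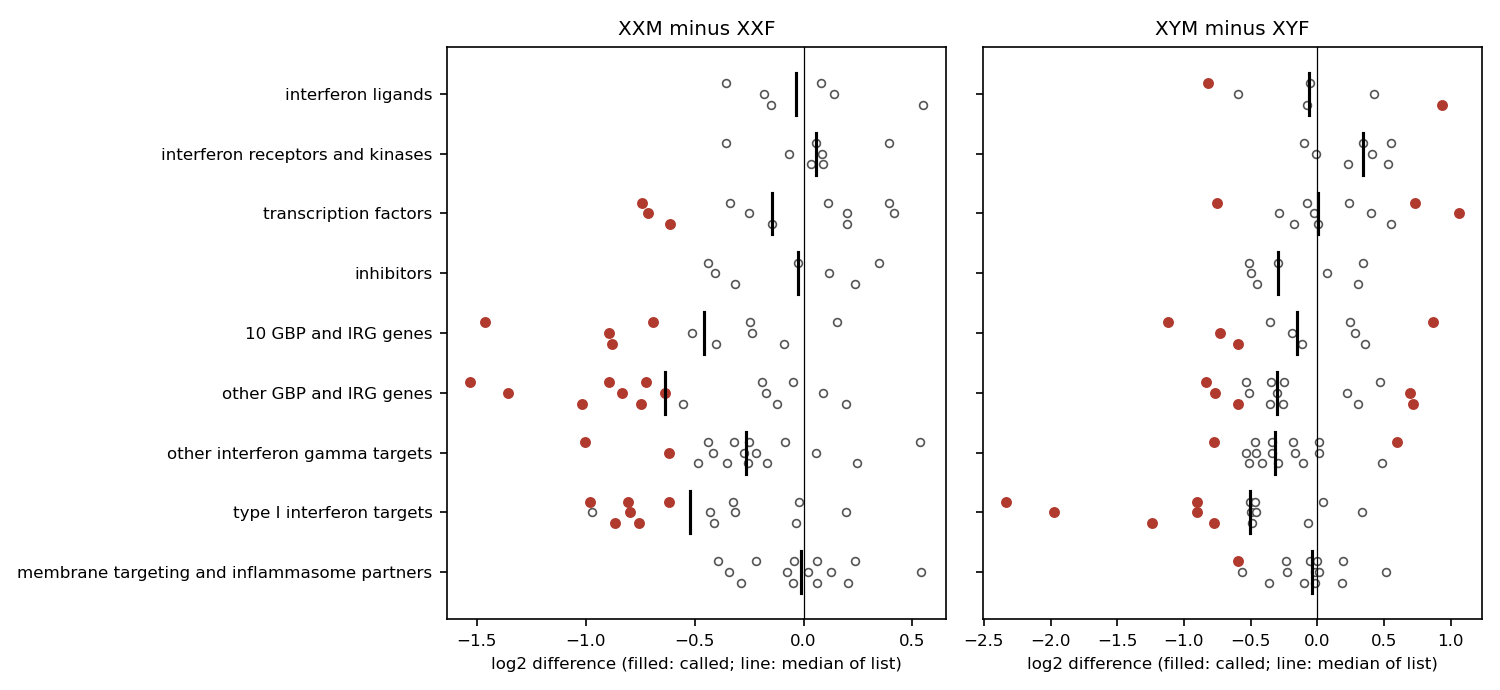
Differences on the log2 scale of the genes in each pathway list in XXM minus XXF (left) and XYM minus XYF (right), with called genes filled and a line at the median of each list. Other GTPases and type I targets lie mostly below 0 in XX mice (medians -0.64 and -0.52), while receptors and kinases do not (0.06).

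Marker mRNA of several cell types differed between the same groups in which GTPases differed. Of 10 T cell markers, 9 were called lower in XXM than in XXF (median -1.47) and 7 lower in XYM than in XYF (-0.77). Over all genes, 4.22% were called in XXM minus XXF (2.91% lower) and 15.8% in XYM minus XYF (8.13% lower, 7.63% higher). In XXF minus XYF the share called was 1.38%, and in XXM minus XYM it was 2.96% (1.83% lower). Summed RPKM of these markers was 1480, 2040, 1820, 1500 and 1810 in XXF, 1410, 1850, 1440 and 754 in XYF, 811, 901, 869, 687 and 666 in XXM, and 525, 856, 773, 1090 and 963 in XYM. The T cell score, a mean of centred levels, had an r of 0.701 with the GTPase score over 19 mice and 0.538 within groups, which without XYM 9 was 0.22 over 18 mice. Males therefore had less T cell mRNA and less Iigp1, Igtp and Gbp2 mRNA together, and whether the one accounts for the other was not tested. In XXM minus XYM, Cd8b1 (-0.83), Cd8a (-0.77) and Cd4 (-0.69) were lower, as Iigp1 was. Of 8 B cell markers, 7 were called higher in XYM than in XYF (0.80), as Gbp9 was and unlike Iigp1, Igtp and Gbp2, and 1 was higher in XXM than in XXF. The B cell score had an r with the GTPase score of -0.17 over all mice and 0.789 within groups (0.713 without XYM 9). NK cell markers, from cells that make interferon gamma, were higher in XXF than in XYF for 6 of 8 (1.21) and in XXM than in XYM for 3 of 8. In limma, Iigp1 was called lower in XXM minus XYM (-0.93) and was not called in XXF minus XYF (-0.59, adjusted p = 0.245). NK cell markers and Iigp1 were thus called in opposite directions in XXM minus XYM. The NK score had an r with the GTPase score of 0.089 over all mice and 0.801 within groups (0.539 without XYM 9).

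Neutrophil and erythroid markers varied widely between single mice. Summed RPKM of 8 neutrophil markers was 4610, 3830, 5220, 5040 and 4410 in XXF, 13100, 16600, 8020 and 56200 in XYF, 6640, 5690, 7510, 5010 and 4410 in XXM, and 58300, 3210, 9410, 4100 and 3990 in XYM. In XXF minus XYF all 8 were below 0 (median -2.09), and limma called 0 of them (8 at an unadjusted p under 0.05, 0 by limma-voom). An unadjusted p under 0.05 was found for 18.7% of all genes there. Without XYM 9 and XYF F9, 5 of 8 were called lower in XXF minus XYF (0.895% of all genes called), 5 higher in XXM minus XXF (4.74%) and 4 lower in XYM minus XYF (22.1%). Both mice were singled out by these same markers, so these counts are no independent test of them. Neither mouse is in XXM or XXF, so in XXM minus XXF only the shared spread and the adjustment of p changed. The neutrophil score had an r of -0.359 with the GTPase score, and -0.787 within groups, where XYM 9 was low for the GTPases and high for neutrophils. Without XYM 9 the value within groups was -0.504. Whether neutrophil mRNA diluted that of the GTPases in XYM 9 was not tested. All 6 erythroid markers were called lower in XYM than in XYF (-2.19), where 8.13% of all genes were called lower. Dendritic cell markers had 3 of 7 higher in XXM than in XXF and in XYM than in XYF. In either direction, 4.22% and 15.8% of all genes were called there. One of the 7, Bst2, is also a type I interferon target. Macrophage and monocyte markers had 2 of 9 lower in XYM than in XYF, Cd14 (-1.203) and Spic (-0.74), and plasma cell markers had Irf4 higher (1.03) and Tnfrsf17 lower (-0.82) of 7 there. The most abundant markers by mean RPKM were Cd2 (263), Cd79b (865), Gzma (201), S100a9 (4980), Hba-a1 (3320), Bst2 (80.0), Lyz2 (1140) and Jchain (957). No marker was at 0 in every mouse, so each of these cell types may have contributed to the RNA in which the GTPases were read. Which cells held the GTPase mRNA cannot be read from whole spleen, and was not tested.

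**Figure D5:**
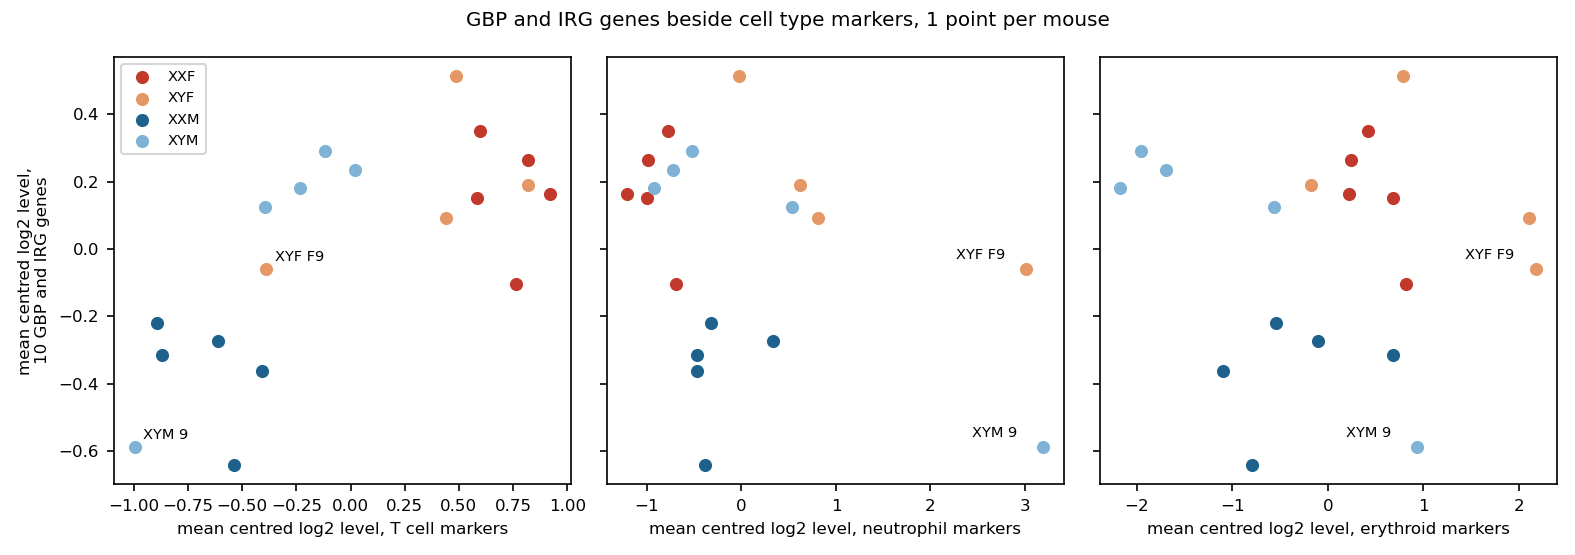
GTPase family score of each mouse (log2 units, vertical axis) against its T cell, neutrophil and erythroid marker scores (horizontal axes), by group. XXM mice combine low GTPase and low T cell scores, and XYM 9 combines a low GTPase score (-0.59) with a high neutrophil score (3.19).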

How the data were processed

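RNA of splenocytes from 19 FCG mice was sequenced, 1 library per mouse, in groups of 5 XXF, 4 XYF, 5 XXM and 5 XYM. The methods and the sample records name different library kits, so the kit is not given here. For the deposited table, the authors mapped the reads with subread (genome mm10), took counts per gene from featureCounts, and gave RPKM on a log2 scale, log2(RPKM + 1) with 1e-04 added. Versions, gene annotation and the handling of reads with several matches are not stated. Library sizes were recovered from the steps between the deposited values: 21317 of 21317 genes with any read gave whole reads within a tolerance of 0.05. Estimated sizes ran from 11263753 to 19962022 reads. The recovery and the fit were tested on simulated data.

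Members were matched regardless of letter case, through Entrez IDs, since some symbols are deposited as GBP2, gbp7 or iigp1. The filter kept genes that reached an RPKM of 0.5 in 4 or more mice (14186 of 27179). The deposited log2 values were fitted with limma 3.58.1 (R 4.3.3), with 1 mean for each group and empirical Bayes spread with a trend, and p was adjusted by Benjamini-Hochberg over the 14186 genes. A gene was called at adjusted p under 0.1 and a log2 difference over 0.585 in size, the thresholds stated for the study. The 7 comparisons were XXF minus XYF, XXM minus XYM, their mean (XX minus XY), XXM minus XXF, XYM minus XYF, their mean (males minus females), and the interaction. Comparisons that share groups share mice.

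The same genes were also tested with another pseudocount (0.1 or 0.5), filter (none, 21317 genes, or RPKM of at least 1, 13026 genes), scaling (median ratio, quantile), spread, array weights, thresholds, the compared groups alone, limma-voom on recovered reads, and each mouse left out. A fit without XYM 9 and XYF F9 was added after seeing the data. Genes were named by a rule: all members, and called genes of the pathway lists, though not every called gene is named. Up to 3 of the most abundant genes of each list and the most abundant marker of each cell type were also named. Of the 5 genes outside the GTPase lists with the highest correlation with the family score, 4 were named. The members and lists themselves were chosen with earlier results of these data known. Some genes of the lists are named by their role and were chosen after their values were seen: Ifng, Irf1 and the marker genes called in a comparison. Correlations are Pearson's r and carry no p. Promoters were read from GRCm38.p6. Proteins were not searched for motifs, for lack of protein sequences. Python 3.11.15, numpy 2.4.6, pandas 2.3.3 and matplotlib 3.10.9 were used.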

Additional observations from a re-analysis of the deposited data

Results flagged for a closer look

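Among 44 groups of values examined (each member and the family score in each group of mice), 4 held a mouse far from the others by Dixon's criterion, and 3 of these were XYM 9. Chance alone sets apart a mouse in about 1 in 20 groups. These groups are not independent, since the members vary together and the score is their mean, so the 2 shares cannot be compared as a test. Irgm1 was at 5.34 in XYM 9, below the 5.97 to 6.20 of the other XYM mice. Iigp1 was at 1.71 in XYM 9, below the 2.85 to 3.29 of the others. The family score of XYM 9 was -0.59, beside 0.12 to 0.29 in the others. In the opposite direction, Iigp1 was at 2.25 in XXM 6, above the 1.77 to 1.90 of the other XXM mice. XYM 9 also had a neutrophil marker score of 3.19, and why it differed was not tested.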

How the results depend on the processing

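Of 70 member differences (10 members in 7 comparisons), 13 were called. Over 2070 alternative values, which leave changes of threshold to the counts given next, 2010 kept their direction and their side of the threshold, 15 lost a call, 21 gained a call and 24 had another sign. None of the 24 was a called difference (0).

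The count of members called for XXM minus XXF was 4 in every alternative but 1: with no fold threshold it was 5 (9.5% of all genes). With array weights it was 1 for XXF minus XYF, 2 for XXM minus XYM and 2 for the interaction, and 3 for XYM minus XYF, where 1.83%, 7.24%, 13.5% and 19.2% of all genes were called. For XXM minus XYM it was 0 with the compared groups alone and 0 at adjusted p under 0.05 (0.853% and 0.599% of all genes). With no fold threshold it was 2 for XXM minus XYM, 2 for XX minus XY, 5 for XYM minus XYF and 6 for males minus females, because more genes then qualify (7.86%, 6.93%, 39.9% and 38.5% of all genes). Without XYM 9 and XYF F9, chosen after seeing the data, it was 1 for XXF minus XYF, 4 for XXM minus XYM, 3 for XYM minus XYF and 2 for the interaction, where 0.895%, 6.18%, 22.1% and 5.51% of all genes were called. Leaving out each mouse gave 0 to 1 for XXF minus XYF (0.395% to 5.99% of all genes), 0 to 4 for XXM minus XYM (0.36% to 8.55%), 0 to 4 for the interaction (0% to 11.9%), 2 to 4 for XYM minus XYF (9.83% to 20.9%), 1 for XX minus XY (1.04% to 3.65%) and 3 for males minus females (5.9% to 8.83%). A mouse outside the compared groups changes such a count only through the shared spread and the adjustment of p. Other causes were not tested.

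Differences near 0 changed sign. Irgm2 in XXF minus XYF was -0.0734 with median ratio rescaling, -0.0277 with quantile normalization and -0.0265 without XYM 9 and XYF F9, and -0.059 to 0.0687 as each mouse was left out. Gbp5 in XX minus XY was -0.0189 with median ratio rescaling, -0.017 with array weights, -0.0683 without both mice and -0.0412 to 0.10 as each was left out. Gbp3 in XXM minus XYM was -0.0234 without both mice and -0.0234 to 0.15 as each was left out. As each mouse was left out, Gbp9 in XXM minus XXF ran from -0.25 to 0.072, Gbp4 in males minus females from -0.12 to 0.0305, and Irgm1 in XYM minus XYF from -0.19 to 0.0275. These causes were not tested either.

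The alternative with the compared groups alone does not apply to the averages and the interaction. No member had fewer than 93 reads in a mouse.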
